A study of Homo sapiens with 6 samples.

Results

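The receptors of the epidermal growth factor (EGF) family, their neuregulin ligands, the hepatocyte growth factor receptor MET and the receptor AXL were followed in tumours of DMS114, a human small cell lung cancer cell line, grown in a sciatic nerve invasion model. Members were taken by gene symbol from the deposited count table: EGFR, ERBB2, ERBB3, ERBB4, NRG1, NRG2, NRG3, MET and AXL. Of the 9 symbols, 8 had a row among the 17081 genes of the table, and 7 passed the low-count filter that left 13382 genes for testing. NRG1 did not pass it, and NRG3 was not analysed here. The series holds 3 libraries of tumour from the distal invasive region and 3 from the proximal one. Both groups came from DMS114, and the labels name no genetic change, drug, time, host or animal for either. The labels do not tell separate animals from repeat pieces of 1 tumour, so every p-value below reflects the spread between these 6 libraries, which may be technical.

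ERBB receptors are cell-surface tyrosine kinases that signal as pairs. EGFR binds EGF and its relatives, ERBB3 and ERBB4 bind neuregulins, ERBB2 has no known ligand and serves as the favoured partner of the others, and ERBB3 has little kinase activity of its own. MET is the receptor of HGF, a scatter factor made mostly by mesenchymal cells, and AXL, with TYRO3 and MERTK, forms the TAM family, which binds GAS6 and protein S (PROS1). In peripheral nerve, neuregulin 1 on axons acts on ERBB2 and ERBB3 of Schwann cells, the glia that make myelin.

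Total counts ran from 16171106 to 24217043 in the distal and from 21865148 to 26116191 in the proximal libraries, and distal 3 was the shallowest. Levels are given as CPM, read counts divided by library size on the usual scale, with library sizes adjusted by TMM (trimmed mean of M values). Of 2 marker sets for small cell lung cancer, the coactivator YAP1 was read at 167 to 187 CPM and the synaptic vesicle protein SYP at 56.9 to 63.9 CPM. NEUROD1, a neuroendocrine factor, had 6.47 CPM in distal 3 and at most 0.62 CPM elsewhere. The 12 neuroendocrine markers, NEUROD1 among them, did not all follow it. In distal 3, NCAM1 was also highest at 3.908 CPM, while SCG3 was lowest at 1.649 CPM and CHGA lowest at 6.35 CPM. The 12 markers summed to 126.1, 123.4 and 175.2 CPM in the distal libraries, against 131, 144.4 and 118.1 CPM in the proximal ones. Distal 3 also stood apart in 26 skeletal muscle markers, whose summed level was 59.4, 85.3 and 2605 CPM in distal 1, 2 and 3, against 62.1, 89.9 and 413 CPM in proximal 1, 2 and 3. It was the highest or the lowest of the 6 libraries for 52.3% of all tested genes.

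No difference between the regions passed the test for any member. Expression of ERBB2 and ERBB4 was the highest among the receptors, EGFR, ERBB3, MET and AXL were read at lower levels, NRG2 was the main neuregulin read, and NRG1 had few reads. The ligand of MET, HGF, was among the most abundant transcripts of every library. The edgeR quasi-likelihood test with Benjamini-Hochberg adjustment over all 13382 genes called 0 of the 7 members, beside 0 (0%) of all genes, and the adjusted p was 0.9997 for each member. The unadjusted p was under 0.05 for 0 members, against 178 genes (1.33%) of the table. DESeq2 called 1 gene of the whole table and limma-voom 0, none of them a member.

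Levels between genes were compared per kilobase of annotated exon. ERBB2 led the members with a median of 14.1 CPM per kb over the 6 libraries (range 11.7 to 17.2). ERBB4 followed at 7.09 CPM per kb (3.21 to 8.63), with no overlap between both ranges. Per kilobase of the longest coding sequence their ranges overlapped, with medians of 21.2 for ERBB2 and 21.9 for ERBB4, so their order rests on the length used (12140 bases of exon and 3924 of coding sequence for ERBB4, 5663 and 3765 for ERBB2). Next came NRG2 at 2.19, AXL at 1.96, ERBB3 at 1.19, MET at 1.06 and EGFR at 0.864 CPM per kb of exon. Over the 6 libraries each of these ranges overlapped that of its neighbour in the order, although within every library AXL stood above ERBB3. Per kilobase of coding sequence the medians were 3.58 CPM for AXL, 3.48 for NRG2, 2.7 for EGFR, 2.2 for ERBB3 and 1.68 for MET, so the place of EGFR also rests on the length used. NRG1 was last at 0.0222 CPM per kb, below every other member in every library.

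**Figure D1:**
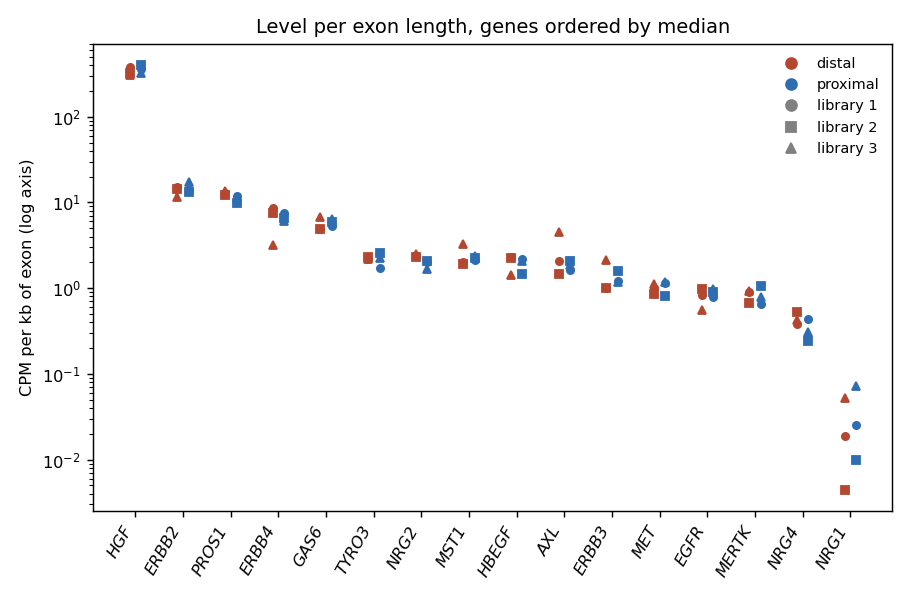
Level of each gene in each of the 6 libraries as CPM per kilobase of exon on a log axis, with genes ordered by their median. HGF sits at 305 to 399 in every library, while MET, its receptor, sits at 0.801 to 1.18.

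ERBB2 (chromosome 17, 39687914 to 39730426, GRCh38) was read at 85.5, 80.2 and 66.0 CPM in distal 1, 2 and 3, against 79.6, 75.0 and 97.4 CPM in proximal 1, 2 and 3. The groups overlapped, with distal 3 lowest and proximal 3 highest. Means were 77.2 ± 10.1 CPM in distal and 84.0 ± 11.8 CPM in proximal tumour (SD, n = 3 each). Distal minus proximal, the log2 fold change was -0.12 (SE 0.13, 95% interval -0.40 to 0.17). Its sign rested on single libraries, being 0.00028 without proximal 3 and 0.10 without both proximal 3 and distal 3. For ERBB2, 194 of 5663 exon bases are shared with PGAP3 on the opposite strand, and the strand setting of the counting is not given in the sources used here.

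ERBB4 (chromosome 2, 211375717 to 212538841), a neuregulin receptor, was read at 104.8, 91.6 and 39.0 CPM in the distal libraries, against 92.4, 80.5 and 73.5 CPM in the proximal ones. Distal 1 was the highest and distal 3 the lowest of all 6, so the proximal values lay inside the distal range. Means were 78.5 ± 34.8 CPM in distal and 82.1 ± 9.52 CPM in proximal tumour, a log2 fold change of -0.06 (SE 0.38, 95% interval -1.05 to 0.92). Without distal 3 the value was 0.26 (edgeR unadjusted p = 0.0416, adjusted p = 0.9987), and without proximal 1 it was 0.02. The exact Poisson interval of distal 3, 36.0 to 42.1 CPM, lay below those of the other 5 libraries, of which the lowest was 70.0 to 77.2 CPM in proximal 3. These intervals cover counting error only. The CPM of ERBB4 relative to ERBB2, without length, was 1.23, 1.14 and 0.59 in the distal libraries, against 1.16, 1.07 and 0.755 in the proximal ones. By CPM, ERBB4 thus stood above ERBB2 in 4 libraries and below it in distal 3 and proximal 3. Per kilobase of exon, ERBB2 stood above ERBB4 in all 6. Distal 3 and proximal 3 also had the most muscle marker reads, and a link between this and the order was not tested.

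ERBB3 (chromosome 12, 56076799 to 56103505) was read at 7.49, 7.42 and 15.7 CPM in the distal libraries, against 8.98, 11.9 and 8.71 CPM in the proximal ones. Distal 3 was the highest library, and distal 1 and distal 2 were the lowest. Means were 10.2 ± 4.76 CPM in distal and 9.87 ± 1.78 CPM in proximal tumour, a log2 fold change of 0.04 (SE 0.30, 95% interval -0.65 to 0.73). Without distal 3 it was -0.40, without proximal 1 it was -0.03 and without proximal 3 it was -0.04. Without both proximal 3 and distal 3 it was -0.49 (edgeR unadjusted p = 0.0394, adjusted p = 0.9991). ERBB3 is also a receptor of Schwann cells, so their markers were set beside it. Of 16 markers 15 had a row, and 5 of them had under 10 reads in every library, among them S100B and PMP2. Their summed level was 86.8, 130 and 82.4 CPM in the distal libraries, against 73.8, 71.7 and 166 CPM in the proximal ones. Much of the sum was PRX, at 41.4 to 50.7 CPM, while SOX10, a transcription factor of these cells, was highest in distal 3 at 0.916 CPM. The part of Schwann cells in the level of ERBB3 was not tested. For ERBB3, 31 of 7430 exon bases are shared with AC034102.2, a protein-coding gene on the same strand.

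EGFR (chromosome 7, 55019021 to 55211628) was read at 9.34, 11.0 and 6.23 CPM in the distal libraries, against 8.94, 10.25 and 11.0 CPM in the proximal ones. Distal 3 was the lowest of the 6, and the other 5 lay close together. Means were 8.86 ± 2.42 CPM in distal and 10.1 ± 1.05 CPM in proximal tumour, a log2 fold change of -0.18 (SE 0.22, 95% interval -0.66 to 0.30), or 0.02 without distal 3. The antisense gene EGFR-AS1 shares 186 of its 11333 exon bases, and its reads cannot be told apart here.

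Among the neuregulins, NRG2 (chromosome 5, 139846779 to 140043299), a ligand of ERBB3 and ERBB4, was the one member whose groups did not overlap. It was read at 9.65, 9.44 and 10.3 CPM in the distal libraries, against 8.36, 8.50 and 6.92 CPM in the proximal ones. All 3 distal values were above all 3 proximal values, as was so for 3.2% of the genes tested, or 6.28% counting both directions. Means were 9.78 ± 0.427 CPM in distal and 7.92 ± 0.875 CPM in proximal tumour. On the log2 scale the fold change was 0.30 (SE 0.17, 95% interval -0.07 to 0.67), unadjusted p = 0.0968 by edgeR, so the difference did not pass the test. It was 0.27 without distal 3 and 0.21 without proximal 3. An antisense gene shares 234 of its 4095 exon bases.

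NRG1 (chromosome 8, 31639386 to 32767959) had 4, 1 and 8 reads in the distal libraries and 6, 2 and 15 in the proximal ones. The highest, proximal 3, came to 0.674 CPM (Poisson interval 0.377 to 1.11). No fold change is given at these counts. Of the other ERBB ligands, NRG4 was read at 0.28 to 0.62 CPM and HBEGF, a ligand of EGFR and ERBB4, at 3.36 to 5.51 CPM. HBEGF had 4.74 CPM in distal and 4.54 CPM in proximal tumour on average (log2 fold change 0.07, SE 0.27), and NRG4 had 0.516 CPM in distal and 0.380 CPM in proximal tumour (0.43, SE 0.49). The sign of HBEGF turned without distal 1 (-0.06), distal 2 (-0.03) or proximal 2 (-0.10). TGFA had at most 8 reads in any library, EGF at most 4 and EPGN at most 1.

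**Figure D2:**
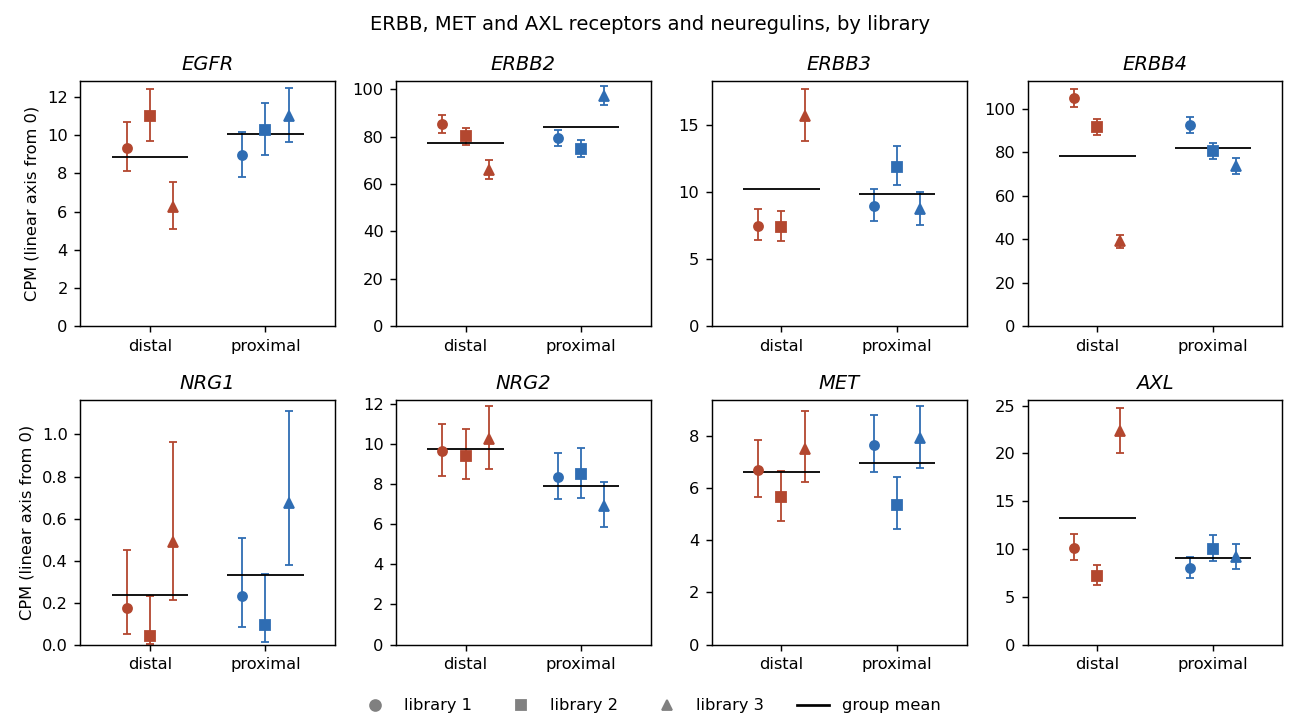
CPM of each member with a row, in the 3 distal (red) and 3 proximal (blue) libraries on linear axes from 0, with exact Poisson intervals and the group means as lines. Distal 3, the red triangle, is lowest for ERBB4 at 39.0 CPM and highest for AXL at 22.3 CPM, and NRG2 alone shows no overlap.

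MET (chromosome 7, 116672390 to 116798386) was read at 6.70, 5.65 and 7.51 CPM in the distal libraries, against 7.66, 5.36 and 7.90 CPM in the proximal ones. The groups overlapped, and proximal 2 was the lowest and proximal 3 the highest library. Means were 6.62 ± 0.935 CPM in distal and 6.97 ± 1.41 CPM in proximal tumour, a log2 fold change of -0.08 (SE 0.22, 95% interval -0.56 to 0.40), which was 0.02 without distal 2 and likewise 0.02 without proximal 3. Its ligand HGF was read at 3673, 3061 and 2912 CPM in the distal libraries, against 3407, 3809 and 3093 CPM in the proximal ones. By CPM, HGF ranked between 4 and 6 among all genes of each library and took 0.295% to 0.377% of its counts. Per kilobase of exon, HGF stood at a median of 340 CPM and MET at 1.06 CPM. The groups of HGF overlapped, with a log2 fold change of -0.10 (SE 0.12, 95% interval -0.36 to 0.17). Fibroblast markers, which mark a known source of HGF, differed in level from one another. COL3A1 had 3725 to 4519 CPM in distal and 4557 to 5104 CPM in proximal tumour. Its groups did not overlap, as was so for 6.28% of the genes tested, counting both directions. DCN had 314 to 584 CPM and LUM 297 to 567 CPM over all libraries. COL1A1 had 16.0 to 38.3 CPM in distal and 7.70 to 62.3 CPM in proximal tumour, and the fibroblast receptor PDGFRA at most 1.28 CPM anywhere. The 10 markers summed to 4564 to 5617 CPM in distal and 5438 to 6147 CPM in proximal tumour, 1 of them had under 10 reads in every library, and their part in the level of HGF was not tested. MST1R, the relative of MET that binds MST1, had at most 5 reads in any library, and MST1 itself had 5.03 to 8.67 CPM, with near-identical copies in the genome that could share its reads.

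AXL (chromosome 19, 41219203 to 41261766) was read at 10.1, 7.21 and 22.3 CPM in the distal libraries, against 8.01, 10.02 and 9.16 CPM in the proximal ones. Distal 3 was the highest and distal 2 the lowest, so the distal range enclosed the proximal one. Means were 13.2 ± 7.996 CPM in distal and 9.06 ± 1.01 CPM in proximal tumour. AXL had the widest interval of the members on the upper side, with a log2 fold change of 0.54 (SE 0.40, 95% interval -0.43 to 1.497). Without distal 3 it was -0.06, so the positive value rested on that library. Without distal 2 it was 0.83 (edgeR unadjusted p = 0.0277, adjusted p = 0.9997). Counting error alone gave 20.1 to 24.7 CPM for AXL in distal 3 (Poisson), while no other library's interval reached beyond 11.5 CPM. An antisense gene shares 67 of the 4895 exon bases of AXL.

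The other TAM receptors did not share the high value of distal 3. TYRO3 was read at 19.6, 20.8 and 19.5 CPM in the distal libraries, against 15.4, 23.4 and 20.4 CPM in the proximal ones, and MERTK at 2.97 to 4.03 CPM in distal and 2.90 to 4.71 CPM in proximal tumour. AXL relative to TYRO3, in CPM without length, was 0.518, 0.347 and 1.14 in distal and 0.519, 0.428 and 0.448 in proximal tumour. The ligand GAS6 had 12.25, 12.24 and 16.85 CPM in the distal libraries, against 13.31, 14.64 and 15.99 CPM in the proximal ones, so distal 3 was the highest. Its means were 13.8 CPM in distal and 14.6 CPM in proximal tumour (log2 fold change -0.09, SE 0.17, or -0.26 without distal 3). PROS1 had 52.1, 49.4 and 54.6 CPM in the distal libraries, against 47.6, 40.3 and 45.7 CPM in the proximal ones. The groups of PROS1 did not overlap, with distal higher, as was so for 3.2% of the genes tested, or 6.28% counting both directions. On the log2 scale the fold change of PROS1 was 0.22 (SE 0.10, 95% interval -0.00089 to 0.45), unadjusted p = 0.0508 and adjusted p = 0.9997 by edgeR. LGALS3 and TUB, which are also listed as ligands of TAM receptors, had log2 fold changes of 0.42 (SE 0.47) and 0.14 (SE 0.13). TUB was highest in distal 3, at 86.2 CPM. Among 7 tested TAM receptors and ligands, distal 3 was the highest library for 4, namely AXL, GAS6, PROS1 and TUB, beside 26.9% of all genes tested.

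**Figure D3:**
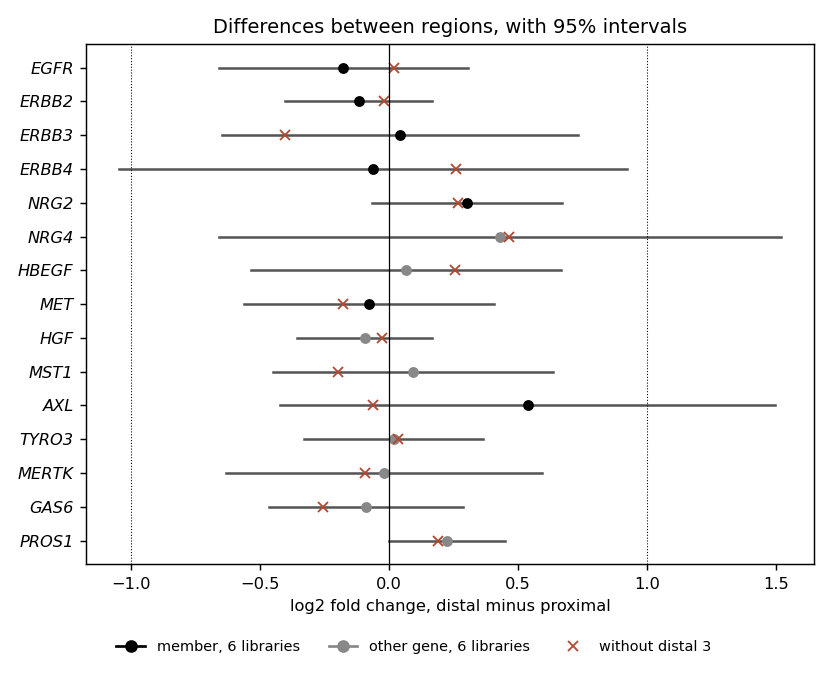
Log2 fold change, distal minus proximal, of the tested members (black) and of the other receptors and ligands (grey), with 95% intervals, and the value without distal 3 as a cross. Every interval includes 0, dotted lines mark a 2-fold difference, and the cross of AXL lies at -0.06 against 0.54 with all libraries.

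For 5 of the 7 tested members the 95% interval allowed less than a 2-fold difference either way, beside 84% of all genes tested. The exceptions were ERBB4 and AXL, the members that varied most between libraries. On the scale of log2(CPM + 0.5), the spread between the highest and the lowest library was 1.56 for AXL and 1.42 for ERBB4. Only a small part of the 10734 genes that averaged 5 CPM or more spread more, since 98.1% of them had a smaller range than AXL and 97.6% a smaller one than ERBB4. The range was 1.03 for ERBB3, 0.77 for EGFR, 0.56 for ERBB2, 0.54 for NRG2 and 0.52 for MET, beside a median of 0.41 over all tested genes. Without distal 3 it was 0.46 for AXL, 0.51 for ERBB4, 0.65 for ERBB3 and 0.29 for EGFR.

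Distal 3 was the highest library for ERBB3, NRG2 and AXL and the lowest for EGFR, ERBB2 and ERBB4, thus an extreme for 6 of 7 tested members, beside 52.3% of all genes. Relative to the median of the other 5 libraries, distal 3 held 2.43 times the CPM of AXL, 1.8 times that of ERBB3, 1.21 times that of NRG2, 1.12 times that of MET, 0.823 times that of ERBB2, 0.608 times that of EGFR and 0.425 times that of ERBB4. The members thus lay on both sides of the other libraries. The muscle markers took 0.264% of the counts of distal 3 and 0.0416% of those of proximal 3, against at most 0.0089% elsewhere, and MYH1, the highest of them, had 398 CPM in distal 3. With the mean muscle marker level added to the fit, the log2 fold change was 0.26 (SE 0.23) for AXL, -0.04 for ERBB4 and -0.16 (SE 0.22) for ERBB3. The SE of ERBB4 was then 0.11, against 0.38 without that term. Leaving out distal 3, with no such term, also gave an SE of 0.11 for ERBB4. Distal 3 held by far the most muscle reads, so the term and that library cannot be told apart here. Proximal 3, second in muscle markers, had 9.16 CPM of AXL, within the range of the 4 libraries with fewer muscle reads, and 73.5 CPM of ERBB4, below all 4. The part of muscle in the member values was not tested. The summed level of epithelial markers was also highest in distal 3, at 23.4, 18.9 and 52.5 CPM in the distal libraries, against 22.8, 29.2 and 17.2 CPM in the proximal ones, and EPCAM and ESRP1 made up most of it in distal 3, at 28.0 and 19.4 CPM. CDH1, E-cadherin, was lowest in distal 3, at 0.366 CPM. Of 10 epithelial markers 7 had a row, 2 of these had under 10 reads in every library, KRT5 and KRT8, and the part of this list in the member values was not tested. Endothelial markers summed to at most 3.66 CPM (KDR at most 0.794 CPM) and leukocyte markers to at most 6.83 CPM (LYZ at most 4.09 CPM) in any library. In bulk tumour, fewer cells of a type and less RNA per cell cannot be told apart.

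**Figure D4:**
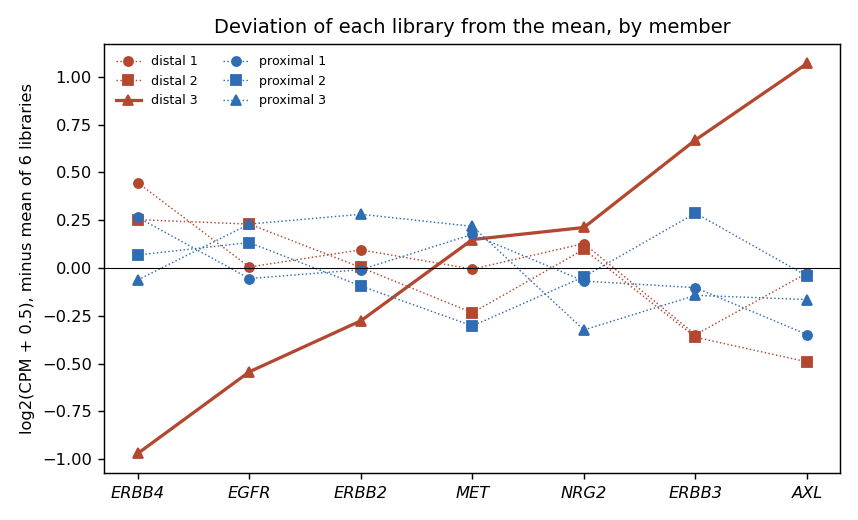
Deviation of each library from the mean of the 6, as log2(CPM + 0.5), for the 7 tested members. The solid red line, distal 3, runs from -0.97 for ERBB4 to 1.07 for AXL, while the other libraries, in dotted lines, stay between -0.49 and 0.45.

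By the root mean square difference of centred log2 values over the 6 libraries, the genes nearest to AXL among 10733 were ESRP1 (0.0904), SAMD11 (0.116) and IGF2BP2 (0.123). ESRP1, an epithelial splicing regulator, had 7.18, 5.52 and 19.4 CPM in the distal and 6.50, 7.94 and 7.77 CPM in the proximal libraries. Those nearest to ERBB4 were DRAM1 (0.0998), KDELR3 (0.115) and PLS3 (0.129). DRAM1, a lysosomal membrane protein, had 26.8, 24.7 and 10.9 CPM in the distal and 22.6, 20.8 and 22.2 CPM in the proximal libraries. Each of these genes shares the extreme value of distal 3 with its member.

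The bases from 250 to 51 before the outermost start listed by RefSeq are shown for ERBB4 and EGFR, whose level in distal 3 was lowest relative to the other libraries, and for AXL, whose level there was highest. All 3 windows lie outside the GENCODE gene bounds given above. They come from RefSeq on GRCh38.p14 and are written from 5′ to 3′ on the strand of the gene, with the GC box motif, GGGCGG or its reverse complement CCGCCC, in capitals.
ERBB4 (chr2:212538853-212539052, minus strand): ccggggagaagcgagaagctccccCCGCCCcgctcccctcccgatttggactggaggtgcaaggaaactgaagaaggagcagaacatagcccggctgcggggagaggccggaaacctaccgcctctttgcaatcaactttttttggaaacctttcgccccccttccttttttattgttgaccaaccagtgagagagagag
EGFR (chr7:55018767-55018966, plus strand): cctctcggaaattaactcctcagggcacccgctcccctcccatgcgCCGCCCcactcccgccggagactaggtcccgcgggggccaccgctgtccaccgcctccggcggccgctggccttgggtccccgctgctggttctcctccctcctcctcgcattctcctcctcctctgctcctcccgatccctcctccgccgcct
AXL (chr19:41218973-41219172, plus strand): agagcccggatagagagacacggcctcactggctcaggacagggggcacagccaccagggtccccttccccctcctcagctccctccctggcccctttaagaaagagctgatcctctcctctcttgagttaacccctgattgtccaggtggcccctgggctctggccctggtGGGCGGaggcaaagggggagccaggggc

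The motif was found 1 time in each window, and 35% of 35116 promoter windows of that length held it at least once. A TATA motif (TATAAA or TTTATA, in 7.63% of windows) and an AP-1 motif (TGAGTCA or TGACTCA, in 3.23%) were searched on both strands and were not among these letters. The share of G and C was 56.5% for ERBB4, 71.5% for EGFR and 65% for AXL, beside a median of 57.5% over all windows. CpG pairs numbered 10 for ERBB4, 18 for EGFR and 3 for AXL, beside a median of 8. These are descriptions of the letters and say nothing of which factor acts there.

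Genes around the receptors were counted in lists, as values, since none of them passed the test. Over all tested genes, 6900 were above and 6482 below 0 in log2 fold change, and the median was 0.0045. Of 14 ligand sheddases and carriers, 4 were higher and 10 lower (median -0.05). ADAM17 and ADAM10, which release ERBB ligands, were read at 87.4 to 96.2 and 322 to 355 CPM over all libraries. The lowest p in this list were those of RHBDF2 at -0.31 (SE 0.20) and ADAM19, a protease that cleaves neuregulins, at -0.37 (SE 0.23). Of 11 genes of HGF activation 10 had a row and 3 were tested. The activator HGFAC had at most 0.225 CPM and matriptase, ST14, at most 0.0449 CPM, while SPINT2, an inhibitor of HGF activation, had 57.0 to 71.8 CPM and a log2 fold change of -0.07 (SE 0.11). PLAT, a plasminogen activator, had 0.55 (SE 0.59) from means of 1.36 CPM in distal and 0.935 CPM in proximal tumour.

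Of 30 adaptors and proximal kinases, 13 were higher and 17 lower (median -0.02). SHC3 at 1.26 (SE 0.63), from means of 0.755 CPM in distal and 0.312 CPM in proximal tumour, and the adaptor NCK1 at -0.16 (SE 0.09) had the lowest p. Of 27 tested genes of the RAS-ERK and PI3K-AKT cascades, 13 were higher and 14 lower (median -0.01), with MAP2K1, a kinase of the ERK cascade, at -0.17 (SE 0.09). Of 25 tested inhibitors and trafficking genes, 7 were higher and 18 lower (median -0.06). SOCS5, which promotes EGFR breakdown, was at -0.25 (SE 0.11) and SOCS3 at 1.16 (SE 0.59), from means of 2.04 CPM in distal and 0.903 CPM in proximal tumour.

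Of 17 tested ERK output genes, 11 were higher and 6 lower (median 0.04). FOS was at 0.76 (SE 0.45), or 0.02 without distal 3, and SPRY2, a feedback inhibitor, at 0.74 (SE 0.59), or -0.26 without distal 3. DUSP6, the ERK phosphatase, had 242, 245 and 383 CPM in the distal libraries, against 231, 288 and 178 CPM in the proximal ones. Distal 3 was the highest library for 8 of the 17 genes, DUSP6 among them, and the lowest for 4, among them ETV1 at 153 CPM and PHLDA1 at 87.5 CPM. Over all genes tested, distal 3 was the highest library for 26.9% and the lowest for 25.4%. Of 19 tested receptors and partners that pair with the members, 12 were higher and 7 lower (median 0.09). ITGA6, whose partner integrin chain ITGB4 binds ERBB2 and MET, was at 0.36 (SE 0.10; edgeR unadjusted p = 0.00525, adjusted p = 0.9997), and PDGFRB was at -0.35 (SE 0.18).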

How the data were processed

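Poly(A) RNA was made into TruSeq libraries, per the labels' protocols. The deposited table holds whole-number read counts by gene symbol that were not normalized. Reads were handled with bcl2fastq and Trimmomatic 0.39, then STAR 2.7.3a and the counter featureCounts 2.0.1, with DESeq2 also named, on GRCh38, per the submitters' processing notes. For the annotation, the strand setting and host reads no detail is given in the sources used here, so host reads could be part of a count. Counts are per gene and do not separate isoforms.

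Here the counts were analysed in R 4.3.3 with edgeR 4.0.16: its expression filter, TMM scaling, and the robust quasi-likelihood test of distal against proximal over the whole table, two-sided, with Benjamini-Hochberg adjustment at 0.05. SE is the absolute log2 fold change over the square root of F. Alternatives used DESeq2 1.42.0, limma 3.58.1 (voom), other scalings and filters, a replicate block, left-out libraries and a muscle covariate. The procedure was tested on counts simulated with the means, spread and depth of these libraries. It called 27.4% of genes altered 1.5-fold, 62.7% altered 2-fold and 92.7% altered 4-fold, beside 0.0943% of unaltered genes. Smaller differences could thus be missed. Positions and lengths came from GENCODE v29 (merged exons of its basic set), promoters from RefSeq. Figures used matplotlib 3.10.9.

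Members, lists and tests were chosen with earlier results of these data known. Named genes were the members, all listed ligands and TAM receptors, the 2 genes of lowest p per other list, the top marker per list and the genes nearest to 2 members. Other markers, ADAM10, ADAM17, HGFAC, ST14, DUSP6, ETV1 and PHLDA1 were named after their values were seen. Results for some genes that this rule would name are not reported here.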

Additional observations from a re-analysis of the deposited data

How the results depend on the processing

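No member was called under any of 16 alternatives, and the adjusted p of the members ranged from 0.9978 to 1. Of 112 member values, 94 kept their direction and 18 did not, and of 382 values of the other named genes 369 kept it. Among all genes 0 were called, except for 1 gene, EDIL3, by DESeq2 and also without distal 1, so that leaving out single libraries gave 0 to 1 called genes. RLE, upper-quartile and total scaling turned no sign, nor did either filter. The unadjusted p given above for AXL without distal 2, ERBB4 without distal 3 and ERBB3 without distal 3 and proximal 3 were each the lowest of that gene over the 16 alternatives. In the same fits, in that order, 305 of 13597, 279 of 13539 and 459 of 13399 genes had an unadjusted p under 0.05.

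Leaving out 1 library at a time, or distal 3 and proximal 3 together, the log2 fold change ran from -0.37 to 0.085 for EGFR, -0.20 to 0.10 for ERBB2 (0.00028 without proximal 3), -0.49 to 0.22 for ERBB3 (-0.40 without distal 3), -0.33 to 0.26 for ERBB4, -0.24 to 0.022 for MET, -0.063 to 0.83 for AXL and 0.18 to 0.35 for NRG2. It ran from -0.095 to 0.31 for HBEGF, -0.20 to 0.23 for MST1, -0.14 to 0.15 for TYRO3, -0.18 to 0.19 for MERTK, -0.011 to 0.25 for TUB, -0.45 to 0.013 for RHBDF2 and -0.26 to 1.12 for SPRY2. Without both distal 3 and proximal 3 the sign turned for EGFR (0.085), ERBB2 (0.10), ERBB3 (-0.49), ERBB4 (0.18), AXL (-0.056), MST1 (-0.16) and RHBDF2 (0.013). ERBB3 turned with limma-voom (-0.091) and with the muscle covariate (-0.16), as did MST1 with that covariate (-0.027); the cause was not tested.

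With the replicate number as a block, 0 genes were called and ERBB3 was at -0.034. Same-numbered libraries did not deviate together in every pair (correlations across genes of 0.375, -0.123 and 0.183 for numbers 1, 2 and 3). Differently numbered pairs had correlations of -0.327 to 0.148, below those of numbers 1 and 3. These values do not settle whether the numbers pair samples, and the main fit did not pair them. Depth limits the genes with few reads, among them NRG1, NRG4, TGFA, EGF, EPGN and MST1R.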
